A study of Mus musculus with 18 samples.

Results

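Lipopolysaccharide (LPS), a component of the outer membrane of Gram-negative bacteria, was given to bone marrow-derived macrophages (BMMs) that lacked the glucocorticoid-induced leucine zipper (GILZ), and their RNA was compared with that of untreated GILZ KO BMMs. All libraries labelled GILZ KO were used, which were 6 of the 18 libraries of the series. They comprised 3 untreated libraries and 3 libraries of cells that had received 100 ng/ml ultrapure LPS of E. coli K12 for 4 h. The other 12 libraries, 6 of WT and 6 of GILZ TG cells with the same treatments, served only to show where the response of GILZ KO cells differed. The mice were C57BL/6J females aged 10 to 23 weeks, and all genotypes carried Cre at the endogenous Lyz2 locus, which is active in myeloid cells. In GILZ KO mice exon 6 of the X-linked gene Tsc22d3, which encodes GILZ, was flanked by loxP sites and is therefore lost where Lyz2 is expressed. WT mice were Lyz2-Cre animals, and GILZ TG mice carried a Gilz-1 cDNA in the ROSA26 locus behind a stop cassette flanked by loxP sites. Bone marrow cells were differentiated with 50 ng/ml M-CSF for 6 days and plated at 500000 cells per well. The study describes the libraries as independent preparations from 3 mice per group. Whether the untreated and LPS libraries with the same number came from the same mouse is not given in the sources used here.

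LPS is bound by CD14 and by the receptor complex of TLR4 and MD-2. Signals through the adaptor MyD88 activate NF-kB and mitogen-activated protein kinases, which induce cytokine and chemokine genes, whereas signals through TRIF activate IRF3 and thereby interferon beta and the genes that respond to it. GILZ, a small leucine zipper protein of the TSC22D family, is induced by glucocorticoids, binds NF-kB and AP-1 subunits and is known for restraining inflammatory gene expression in macrophages.

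The deposited expected counts summed to between 20501046 and 25911644 per untreated library and to between 14583055 and 22640548 per LPS library. Low counts were therefore somewhat less precise after LPS. All 10 macrophage markers on the list were measurable, with a summed level of 4970 to 5340 TPM in untreated and 5790 to 6030 TPM in LPS libraries. TPM is a level of transcripts scaled by their length and by the library total. With edgeR's quasi-likelihood test 8 of these 10 markers were higher after LPS, of which 3 had a lower sign when only library totals were used for scaling. Markers of T and NK cells summed to 1.45 to 1.83 TPM untreated and 2.94 to 3.41 TPM after LPS, with 8 markers at 0 in all 6 libraries. Erythroid markers reached at most 1.37 TPM, with 2 at 0, and those of mast cells and basophils at most 0.81 TPM, with 5 at 0. Stromal markers summed to 12.3 to 26.9 and 16.7 to 30.0 TPM, endothelial markers to 36.2 to 42.8 and 28.6 to 33.0 TPM, markers of the neutrophil lineage to 31.6 to 61.6 and 53.6 to 66.9 TPM, and markers of B and plasma cells to 31.8 to 34.9 and 16.9 to 19.6 TPM. The dendritic cell list went from 217 to 239 TPM up to 761 to 849 TPM, with 2 of its markers tested, both higher, and 1 of these with a lower sign under library totals. No untested marker of this list exceeded 16 counts in a library. The sum thus describes mainly these 2 genes, with log2 fold changes of 0.44 and 2.46, and not a cell type. The part of other cells in the results was not tested, and in bulk RNA fewer cells of a type and less RNA per cell cannot be told apart.

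Among the untreated GILZ KO libraries, replicate 1 stood apart in genes of the LPS response. Of the 238 genes that rose at least 32-fold, 26 were more than 2-fold higher in this library than in the mean of the other 2 untreated GILZ KO libraries, against 7 and 10 genes for replicates 2 and 3. The same count was 6 to 7 in untreated WT and 9 to 17 in untreated GILZ TG libraries. The median log2 ratio of the 238 genes to the other 2 libraries was 0.10 in replicate 1, against -0.10 and -0.12 in the others, and 0.00 over all genes. Their summed level in replicate 1 was 1.47% of the level after LPS, compared with 1.32% and 1.24% in replicates 2 and 3. Untreated replicate 3 of GILZ TG was similar in these measures, with a median ratio of 0.07 and 1.56% of the level after LPS in GILZ TG. Without untreated replicate 1 of GILZ KO, 9 of 187 named genes changed their fold by over 1.5 times, each upwards. Their values without it stand beside the results.

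The targeted gene Tsc22d3 (ENSMUSG00000031431, chrX:140539528-140600659 on the minus strand of GRCm38) was low in every GILZ KO library. Untreated GILZ KO cells had 1.89, 2.81 and 2.31 TPM (2.34 ± 0.461, SD, n = 3), which rest on 53 to 70 counts, and LPS-treated GILZ KO cells had 2.96, 3.28 and 2.50 TPM (2.91 ± 0.392, SD, n = 3). The groups overlapped. In WT cells the levels were 15.78, 14.88 and 18.84 TPM untreated and 4.56, 5.81 and 5.09 TPM after LPS, and in GILZ TG cells 151.97 to 159.83 and 127.22 to 140.56 TPM. The lowest WT library was thus above the highest GILZ KO library, and the labels were borne out by the transcript in all 18 libraries. The gene-level count also includes exons that the deletion leaves. Within GILZ KO cells the log2 fold change was 0.91 (SE 0.19, adjusted p = 0.00091, edgeR), and with library totals alone it was 0.29, which did not pass the threshold.

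At the Cre locus, Lyz2 (lysozyme M, ENSMUSG00000069516, chr10:117277331-117282321) stood at 28.22, 45.83 and 26.72 TPM in untreated GILZ KO cells and at 57.60, 67.74 and 63.26 TPM after LPS, a rise of 1.53 on the log2 scale (SE 0.16, adjusted p = 2.26e-06, edgeR; 0.90 with library totals). GILZ TG cells were at similarly low values of 17.24 to 53.08 and 22.15 to 70.25 TPM. The Lyz2-Cre cells called WT had 11048 to 15401 TPM untreated and 6766 to 9466 TPM after LPS. The genotypes therefore differed at this locus in addition to GILZ, and in comparisons with WT the 2 differences cannot be told apart.

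LPS changed most measurable genes of GILZ KO macrophages. Of 12269 genes tested, 4459 (36.3%) were higher and 4806 (39.2%) were lower at an adjusted p under 0.05, and 1822 (14.9%) and 1910 (15.6%) did so with a change of at least 2-fold. These shares are the background for the counts of list members that follow. Large rises outnumbered large falls, with 959 genes up and 526 down at least 4-fold, 550 up and 132 down at least 8-fold, and 238 up and 9 down at least 32-fold. The genes that rose at least 2-fold held 10.3 to 10.5% of the reads in untreated and 36.9 to 39.0% in LPS libraries. Those that fell at least 2-fold went from 6.35 to 6.44% of the reads down to 1.33 to 1.51%.

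The sign of small changes depended on the scaling. The trimmed mean of M-values (TMM), used here throughout unless stated, placed the median gene at -0.04 on the log2 scale, and library totals alone placed it at -0.66, a shift of 0.627. With library totals 2050 genes were higher and 8830 lower, so that higher genes made up 18.8% of the calls and not 48.1% as with TMM. In both scalings 2050 genes (16.7%) were higher and 4806 (39.2%) lower, and 1195 and 1910 genes changed at least 2-fold in both. TMM log2 fold changes between 0 and 0.63 have a lower sign with library totals and in TPM, and no spike-in was used here to set an absolute level.

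**Figure D1:**
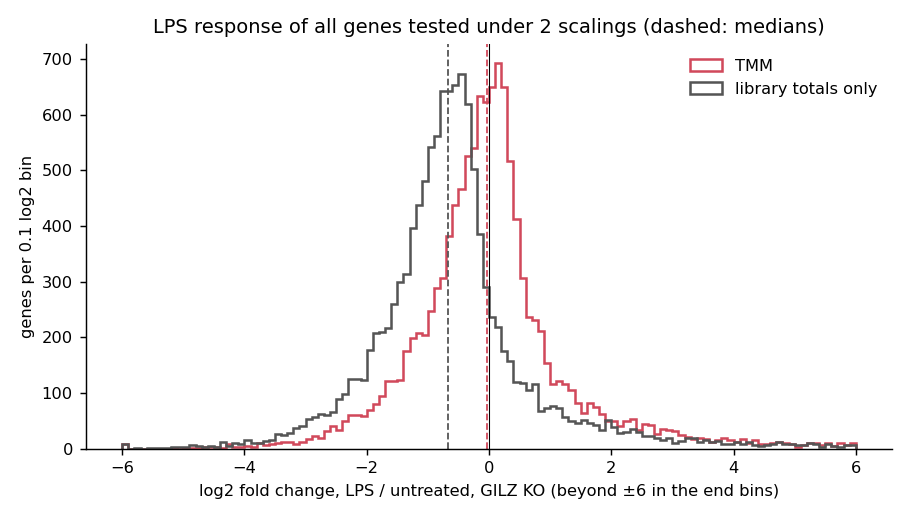
Number of genes (y axis, per bin of 0.1) against the log2 fold change of LPS over untreated in GILZ KO macrophages (x axis) for all 12269 genes tested, with TMM and with library totals only. The dashed lines mark the medians at -0.04 and -0.66, and the long right tail holds the 238 genes that rose at least 32-fold.

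Among the most abundant transcripts, LPS brought chemokines near or above the level of actin (Actb, 9151 TPM after LPS) but not to that of the ferritin chains. Ferritin heavy chain Fth1 led in both states, with a mean of 27360 TPM (SD 1100, n = 3) untreated and 29760 TPM (SD 1070, n = 3) after LPS. The ferritin light chain Ftl1 had 22907, 25090 and 24840 TPM untreated and 14761, 13017 and 13726 TPM after LPS. Its log2 fold change was -0.19 with TMM (SE 0.06, adjusted p = 0.0143, edgeR) and -0.82 with library totals, past the threshold. The TMM call was lost without LPS replicate 2 (adjusted p = 0.0609, edgeR) or without untreated replicate 2 (adjusted p = 0.0675). Cxcl10, a ligand of CXCR3 on activated T cells, became the transcript with the third highest level, at 12260 TPM (SD 566, n = 3) against 39.8 TPM. Ccl3 and Ccl4, the macrophage inflammatory proteins 1 alpha and 1 beta, went from 273.8 to 10340 TPM and from 204.2 to 7902 TPM. Ccl2, which recruits monocytes, and Ccl9 were already high without LPS, at 1564 and 2860 TPM, and reached 8182 and 7170 TPM.

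**Figure D2:**
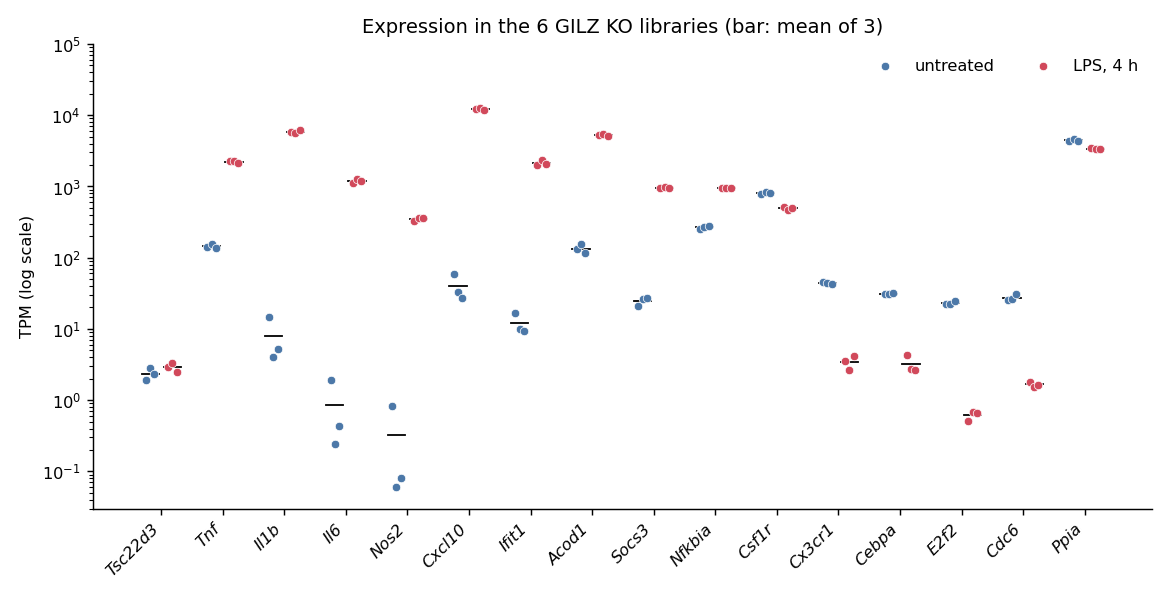
Level in TPM (y axis, log scale) of 16 named genes (x axis) in the 3 untreated and 3 LPS-treated GILZ KO libraries. Points are libraries and bars the means of 3; untreated replicate 1 is the highest of the untreated points in Il6, Il1b, Nos2, Cxcl10 and Ifit1, and Tsc22d3 overlaps between the groups.

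Among genes with a mean of at least 10 TPM after LPS, the largest rises were in cytokine, chemokine and effector genes that were close to silent without LPS. Interleukin-6 (Il6) had 1.92, 0.24 and 0.43 TPM untreated and 1101, 1261 and 1184 TPM after LPS, a log2 fold change of 10.92 (SE 0.21, adjusted p = 1e-13, edgeR) that was 12.35 without untreated replicate 1. The inducible nitric oxide synthase Nos2 went from 0.84, 0.06 and 0.08 TPM to 330, 355 and 366 TPM. Its log2 fold change of 10.55 (SE 0.28, adjusted p = 1.75e-12) was 12.82 without untreated replicate 1. For Il1a and Il1b, which encode both forms of interleukin-1, the untreated levels were 6.98, 1.33 and 2.66 TPM and 14.91, 4.09 and 5.18 TPM, and the levels after LPS 2819 to 2932 and 5701 to 6103 TPM. Their log2 fold changes were 10.19 and 10.09, and 11.14 and 10.93 without untreated replicate 1. Endothelin-1 (Edn1), a vasoconstrictor peptide, had 0.58, 0.04 and 0.08 TPM untreated and 117 to 163 TPM after LPS (log2 fold change 9.73, or 11.80 without untreated replicate 1). Endothelial lipase (Lipg) behaved alike, with 0.19, 0.07 and 0.02 TPM and 69.5 to 108 TPM (10.41, or 11.46 without that library). In all of these the untreated and LPS libraries lay far apart, and untreated replicate 1 was the highest of its group.

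Several induced genes had few or no counts without LPS, so that a fold is only bounded. Ccl17, a ligand of CCR4, had 0 counts in all 3 untreated libraries and 43.85, 38.20 and 31.87 TPM after LPS, which was at least 326-fold higher than a floor of 3 counts over the untreated group. Ifnb1, which encodes interferon beta, also had 0 counts untreated and 10.27, 10.57 and 9.77 TPM after LPS, at least 138-fold higher. Il12b, the p40 subunit shared by interleukin-12 and interleukin-23, had 3 counts over the untreated libraries and 2512 counts over the LPS libraries. Their ratio was 1670 with a 95% counting interval of 571 to 8100, and its log2 fold change of 10.52 was 11.36 without untreated replicate 3. Shisa3 was at 0.04, 0.02 and 0.09 TPM untreated and at 38.25, 31.24 and 33.71 TPM after LPS (9.97, or 10.60 without untreated replicate 3), and Serpina3f, a serine protease inhibitor, at 0.13, 0.04 and 0.09 and at 48.5 to 78 TPM (10.09). Gm9845 (chr3:39358306-39358903) rose at least 979-fold above the floor from 0 counts, but it is a processed pseudogene that can share reads with its parent gene, and its value is uncertain.

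Among genes with a mean of at least 10 TPM untreated and no overlap between the groups, the 12 largest falls ranged from -3.95 to -5.14 on the log2 scale. Some genes with lower levels fell further. E2f2, a transcription factor that drives entry into S phase, went from 22.66, 22.28 and 24.61 TPM to 0.51, 0.69 and 0.67 TPM and had the deepest fall of the named genes with counts in both groups, at -5.14 on the log2 scale (SE 0.12, adjusted p = 3.93e-13, edgeR). Cdca7, a cell cycle gene regulated by MYC and E2F factors, fell from 17.54, 22.31 and 23.83 TPM to 0.44, 0.59 and 0.66 TPM (-4.83). Ccsap, a centriole-associated protein, fell by 4.76, and Ankle1, an endonuclease, by 3.96 on the same scale. Cnr2, the cannabinoid receptor of immune cells, had 11.53, 11.09 and 10.39 TPM untreated and 0.46, 0.30 and 0.34 TPM after LPS. Gpr183, the oxysterol receptor that guides immune cell migration, went from 24.5 to 27.7 TPM down to 0.73 to 1.15 TPM. Gcnt1, a glycosyltransferase of O-glycans, fell from 72.3 to 80.4 TPM to 1.98 to 2.58 TPM, and the haematopoietic transcription factor Lyl1 from 35.1 to 39.0 TPM to 0.92 to 1.57 TPM. The remaining 4 of the 12 largest falls were Fam78a (-4.63), Fam83f (-4.24), Plekhg3 (-4.07) and Mtss1 (-3.95). None of these 12 genes overlapped between untreated and LPS libraries, which the rule for naming them required, and all 12 fell in both scalings.

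The receptor and adaptor genes for LPS moved in both directions. Of 18 tested, 13 were higher and 4 lower, and 8 were higher and 4 lower in both scalings, with a median log2 fold change of 0.66 (0.03 with library totals). Cd14, the co-receptor, had 621, 791 and 740 TPM untreated and 1586, 1681 and 1783 TPM after LPS, a rise of 1.86 (SE 0.09, adjusted p = 5.75e-10, edgeR). Tlr4 itself had 41.30, 37.97 and 38.40 TPM untreated and 31.04, 31.49 and 36.23 TPM after LPS, which was a rise of 0.31 with TMM and a fall of 0.32 with library totals. The adaptor Myd88 rose by 2.67, the signal-transducing kinase Irak2 by 2.93 and Irak3, which dampens Toll-like receptor signals, by 2.63. Falls were found in Irak4 (-0.51), the kinase at the top of the MyD88 branch, in Tab1 (-1.30), a partner of TAK1, and in Traf3 (-1.17), which links TRIF to the interferon branch.

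NF-kB subunits, IkB proteins and their ubiquitin regulators rose together. All 22 tested members were higher, 16 of them at least 2-fold and 19 in both scalings, and 2 had a lower sign with library totals. Their median log2 fold change was 1.80 and 1.18 with library totals. Nfkbiz, which encodes the nuclear co-activator IkB zeta, had 7.93, 8.19 and 7.46 TPM untreated and 192, 218 and 192 TPM after LPS, a rise of 5.29 (SE 0.08, adjusted p = 1.95e-14, edgeR). The inhibitor Nfkbia went from 251, 274 and 278 TPM to 963, 937 and 955 TPM (2.46). Tnfaip3, which encodes the ubiquitin-editing enzyme A20, went from 36.15, 37.12 and 36.84 TPM to 416, 452 and 387 TPM (4.15), and Traf1 from 43.7 to 48.0 TPM to 371 to 386 TPM (3.75). Untreated and LPS libraries were clearly apart in each.

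Cytokine genes had the highest median change of the lists. All 20 cytokines with enough counts rose, 19 at least 2-fold, and the median log2 fold change was 5.68, or 5.05 with library totals, where 1 of the 20 turned lower. Il12a and Il23a were too low to test. Without untreated replicate 1 the median was 5.75 with 19 of 20 higher. Tnf had 142, 156 and 136 TPM untreated and 2306, 2268 and 2139 TPM after LPS, a rise of 4.58 (SE 0.07, adjusted p = 2.17e-14, edgeR) from a level that was already substantial. The anti-inflammatory Il10 went from 4.26, 4.30 and 4.17 TPM to 36.8, 59.0 and 53.4 TPM (4.16, SE 0.19).

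Among 23 chemokine ligands, 21 were higher, 18 of them at least 2-fold, and 1 was lower, with a median of 5.43 (4.80 with library totals, where 2 turned lower). Ccl5, which attracts T cells and monocytes, had 17.11, 5.63 and 5.44 TPM untreated and 5764, 5813 and 6014 TPM after LPS (9.85, or 10.67 without untreated replicate 1). Cxcl10 had 58.87, 33.46 and 27.07 TPM untreated and 12276, 12819 and 11687 TPM after LPS (8.88, SE 0.25, adjusted p = 2.7e-12, edgeR). The exception was Cxcl14, which fell from 34.11, 32.81 and 31.48 TPM to 11.36, 8.95 and 9.13 TPM (-1.10). Cxcl1 and Cxcl2, the neutrophil attractants whose promoters are printed next, were chosen after their values were seen and stood at 4.36 to 7.09 and 95.8 to 113 TPM untreated and at 256 to 336 and 2443 to 2764 TPM after LPS.

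Promoters of induced genes from these families are shown as examples with matches to a kB site or an interferon-stimulated response element, the motifs bound by NF-kB and by interferon-activated factors. No kB match was found in the 250 bases before the start of Tnf, Il1b and Il12b, which were also searched and rose by 4.58, 10.09 and 10.52 on the log2 scale, so the printed promoters do not stand for all induced genes. The sequences are those of RefSeq on GRCm38.p6, printed 5′ to 3′ on the strand of the gene, with matches in capitals. Both strands were searched for the kB site, GGG and TTCC with any 3 bases between them, and in Cxcl10 and Ifit1 for the interferon-stimulated response element, GAAA and a second GAAA with any 2 bases between them. Ifit1 was not searched for the kB site here, and other motifs are not marked.
Cxcl10 at chr5:92348969-92349117, minus strand: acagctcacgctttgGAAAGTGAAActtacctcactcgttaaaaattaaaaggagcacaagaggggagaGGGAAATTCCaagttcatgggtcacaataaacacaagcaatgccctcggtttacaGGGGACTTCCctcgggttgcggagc
Il6 at chr5:30013055-30013094, plus strand: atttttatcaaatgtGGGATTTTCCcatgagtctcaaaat
Cxcl1 at chr5:90891141-90891199, plus strand: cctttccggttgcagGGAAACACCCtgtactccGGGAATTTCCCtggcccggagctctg
Cxcl2 at chr5:90903787-90903845, plus strand: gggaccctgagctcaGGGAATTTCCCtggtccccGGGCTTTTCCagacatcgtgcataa
Nfkbia at chr12:55492652-55492691, minus strand: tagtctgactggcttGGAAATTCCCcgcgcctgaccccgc
Ifit1 at chr19:34640770-34640828, plus strand: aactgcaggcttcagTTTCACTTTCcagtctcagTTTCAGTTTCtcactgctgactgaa
Cxcl10 holds both motifs, Ifit1 a pair of response elements and the others kB sites. In the Cxcl1 and Cxcl2 promoters the palindromic run matches on both strands, which counts as overlapping matches of 1 motif.

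Over all 32851 promoters of 27025 genes in the RefSeq set, from 250 bases before to 50 bases after the start, 5.56% held a kB match and 3.44% an interferon-stimulated response element, and in 3 promoters matches of both overlapped. Of 11925 promoters of tested genes the shares were 6.36% and 3.37%. Of 478 promoters of genes that rose at least 8-fold they were 10.3% and 17.2%, of those of genes that fell at least 2-fold 5.74% and 2.13%, and of those of genes not called 5.91% and 2.02%. In the NF-kB list 13 of 26 promoters (50.0%) held the kB match, and in the chemokine and cytokine lists 5 of 16 each (31.2%). In the interferon list 17 of 38 (44.7%) held the response element. The AP-1 site TGANTCA was searched as well, with N as any base, and was held by 7.81% of all promoters, 5.32% of those of tested genes, 15.1% of those of genes that rose at least 8-fold, 5.26% of those of genes that fell at least 2-fold and 4.79% of those of genes not called. It was found in 7 of 26 promoters of the NF-kB list, 4 of 16 each of the cytokine and chemokine lists and 7 of 38 of the interferon list. The cAMP response element, TGAC followed directly by GTCA, was in 1.79% of all promoters, 3.04% of those of tested genes and 1.05% of those of genes that rose at least 8-fold. For the glucocorticoid response element, ACA and TGT with any 3 bases between them, these shares were 6.85%, 4.15% and 5.44%. Overlap was counted only between kB sites and interferon-stimulated response elements. A match in this window describes letters and not binding, and these shares were not tested.

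Interferon regulators and antiviral effectors rose almost throughout. Of 39 tested members, 38 were higher, 37 at least 2-fold and 37 in both scalings, and 1 was lower in both. The median log2 fold change was 5.64, and 5.01 with library totals, where 1 of the 38 turned lower. Rsad2, which encodes the antiviral enzyme viperin, had 33.05, 14.32 and 10.72 TPM untreated and 5744, 6962 and 6081 TPM after LPS, a rise of 8.95 (SE 0.37, adjusted p = 1.55e-10, edgeR) that was 9.59 without untreated replicate 1. Iigp1, an immunity-related GTPase, went from 0.79, 0.43 and 0.14 TPM to 123, 188 and 166 TPM (8.92, or 9.63 without that library). Ifit1, which binds foreign RNA, went from 16.88, 9.95 and 9.42 TPM to 2005, 2321 and 2068 TPM (8.07), and the GTPase Mx2 from 3.01, 1.79 and 1.30 TPM to 235, 267 and 230 TPM (7.49). In these genes as well untreated replicate 1 was the highest of the untreated libraries, far below every LPS library. The exception was Irf3, the factor that starts the interferon branch, with 58.00, 62.94 and 65.90 TPM untreated and 27.87, 24.59 and 29.95 TPM after LPS (-0.39, SE 0.07).

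Inhibitors of cytokine and kinase signalling divided. Of 23 tested, 15 were higher and 6 lower (12 and 6 in both scalings), with a median of 1.08, or 0.45 with library totals. Socs1 and Socs3, which block JAK-STAT signals, went from 2.29 to 2.73 TPM to 196 to 232 TPM (7.01) and from 20.9 to 27.3 TPM to 945 to 987 TPM (5.94, SE 0.08, adjusted p = 1.68e-14, edgeR). Cish, of the same family, rose by 6.04, and Dusp1, a phosphatase of p38 and JNK, by 1.41. The mRNA-destabilising proteins of the tristetraprolin family went in opposite directions in both scalings. Zfp36 had 131, 157 and 137 TPM untreated and 942, 1127 and 1044 TPM after LPS (3.50), whereas Zfp36l2 had 186, 193 and 185 TPM and 39.3, 38.3 and 37.3 TPM (-1.67) and Zfp36l1 fell by 1.79. Pdcd4, a translation inhibitor, fell by 1.96.

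The immediate early factors of the AP-1, EGR and KLF families moved in both directions. Of 22 tested, 12 were higher and 8 lower, with a median of 0.31 and of -0.31 with library totals, where 3 of the 12 turned lower. Ier3, an early response gene, went from 55.6, 70.5 and 70.4 TPM to 286, 288 and 313 TPM (2.80), and Klf6 rose 6.06-fold and Mafk by 2.55 on the log2 scale. Fosl1, which encodes the AP-1 subunit Fra-1, fell from 30.96, 32.66 and 36.51 TPM to 8.32, 6.27 and 6.85 TPM (-1.58), and Klf10, a target of TGF-beta signals, from 36.9 to 37.8 TPM to 5.05 to 6.64 TPM (-2.05). Fosb was low, with 0.47, 0.40 and 0.66 TPM untreated and 0, 0.07 and 0.12 TPM after LPS, and its fall of 2.51 (SE 0.62) was 1.72 without LPS replicate 1 and 3.54 without LPS replicate 3.

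Of 17 tested members of the GILZ family and glucocorticoid receptor targets, 10 were higher and 7 lower, with a median of 0.44 and of -0.19 with library totals. The receptor gene Nr3c1 itself went from 26.43, 27.42 and 27.01 TPM to 78.4, 86.7 and 75.7 TPM (2.17, SE 0.06, adjusted p = 3.15e-12, edgeR). The metallothionein Mt2 rose by 2.58 and the repressor Nfil3 by 2.12. Klf9, a classical glucocorticoid target, fell from 2.68, 2.83 and 3.13 TPM to 0.99, 0.89 and 0.71 TPM (-1.09). Zbtb16, another target, had 71 counts over the untreated and 0 over the LPS libraries, at least 11.9-fold lower. Cd163, the haemoglobin scavenger receptor, was at 0.22 to 0.47 TPM untreated and 0.04 to 0.13 TPM after LPS. Its log2 fold change was -1.30 with TMM (adjusted p = 0.037, edgeR) and -1.91 with library totals, past the threshold. The TMM call was lost in DESeq2 (adjusted p = 0.111), without untreated replicate 2 (adjusted p = 0.14, edgeR) or 3 (0.063) and without LPS replicate 1 (-0.78, adjusted p = 0.211) or 2 (0.0539).

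Macrophage lineage genes showed a mixed picture. Of 24 tested, 15 were higher and 5 lower (11 and 5 in both scalings), with a median of 0.48 and of -0.15 with library totals. The M-CSF receptor Csf1r had 775, 823 and 805 TPM untreated and 522, 471 and 498 TPM after LPS. With TMM its log2 fold change was -0.06 (adjusted p = 0.319, edgeR), and with library totals -0.69, past the threshold. The fractalkine receptor Cx3cr1 fell from 45.50, 43.69 and 42.20 TPM to 3.51, 2.68 and 4.14 TPM (-3.12, SE 0.10). The transcription factor Cebpa, which drives myeloid differentiation, fell from 30.44, 31.13 and 32.15 TPM to 4.27, 2.74 and 2.67 TPM (-2.61), whereas Cebpd rose from 11.74, 16.36 and 13.77 TPM to 150, 182 and 161 TPM (4.19). Fcgr1, the high-affinity receptor for immunoglobulin G, rose by 3.20 and the factor Tfec by 2.63. The called rises and falls of the genes named here were the same in sign with library totals, whereas 4 of the 15 rises of the list turned lower.

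**Figure D3:**
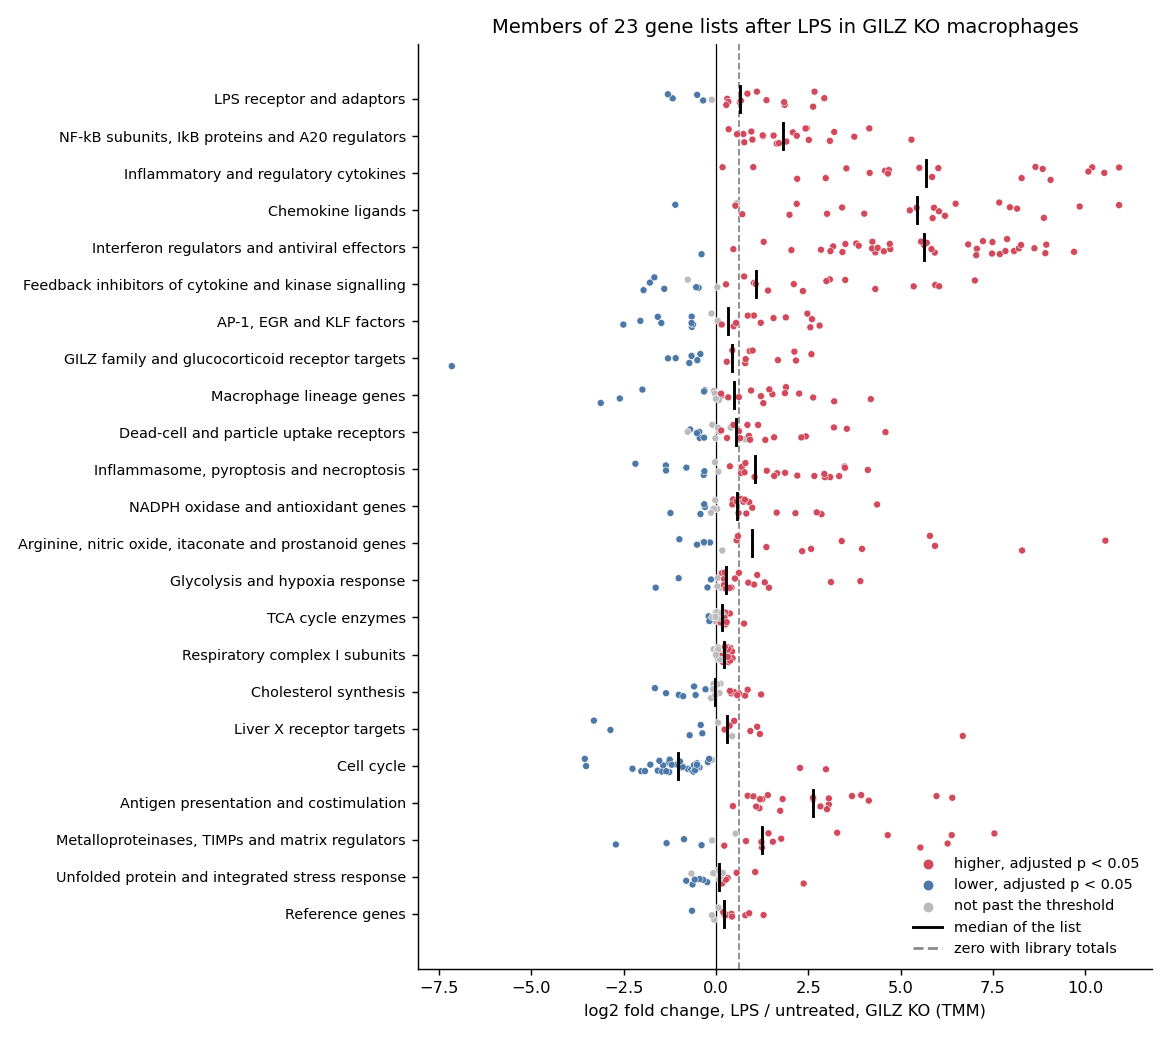
Log2 fold change of LPS over untreated with TMM (x axis) of every tested member of 23 gene lists (y axis), coloured by the call at an adjusted p under 0.05, with the median of each list as a bar. The dashed line is where the fold change is 0 with library totals, and the cytokine, interferon and chemokine lists lie farthest to the right of it and the cell cycle list to the left.

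Among receptors for the uptake of dead cells and particles, 16 of 28 tested were higher and 5 lower, with 4 of the 16 turning lower with library totals (median 0.55, and -0.08 with library totals). Fcgr2b, the inhibitory Fc receptor, had 23.43, 23.17 and 21.69 TPM untreated and 361, 344 and 377 TPM after LPS (4.59, SE 0.07, adjusted p = 1.95e-14, edgeR). Fcgr4 rose by 3.54 and Clec4e, which encodes the receptor Mincle for mycobacterial glycolipids and dead cells, by 3.19. Scarb1, Itgb5 and Stab1, which take part in binding apoptotic cells or modified lipoproteins, fell by 0.70, 0.52 and 0.45. Mertk, the receptor for apoptotic cells, was low at 2.15, 3.35 and 2.48 TPM untreated and 1.80, 2.52 and 2.80 TPM after LPS. The groups overlapped and the log2 fold change of 0.40 did not pass (adjusted p = 0.0717), but it passed without LPS replicate 1 (0.59, adjusted p = 0.0135) or untreated replicate 2 (0.58, adjusted p = 0.0156), and with library totals the value was -0.23.

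Genes of inflammasomes and lytic cell death were higher in 19 of 27 cases and lower in 6 (16 and 6 in both scalings), with a median of 1.04, or 0.41 with library totals. Nlrp3, the sensor of the classical inflammasome, went from 61.7, 72.0 and 65.7 TPM to 500, 501 and 470 TPM (3.48, SE 0.06, adjusted p = 7.3e-14, edgeR). Casp1, which cleaves pro-interleukin-1 beta, rose from 118 to 133 TPM to 481 to 515 TPM (2.66), Casp4, the sensor of cytosolic LPS, by 3.49, and the TNF receptor Tnfrsf1b by 4.11. In the other direction, Nlrp1b went from 11.61, 10.74 and 12.37 TPM to 1.66, 1.77 and 1.53 TPM (-2.18), and the gasdermin Gsdme and the channel Panx1 fell by 1.36 and 1.35.

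For NADPH oxidase and antioxidant genes the counts were 16 higher and 4 lower of 25, of which 10 and 4 in both scalings (median 0.56, and -0.07 with library totals). Cybb, the catalytic subunit of the phagocyte oxidase, went from 228, 247 and 211 TPM to 1110, 1176 and 1059 TPM (2.86). The mitochondrial superoxide dismutase Sod2 rose by 2.73 and the cystine importer Slc7a11 from 2.80 to 3.10 TPM to 35.2 to 43.5 TPM (4.36). Gclc, Gclm and Srxn1, of the glutathione and peroxiredoxin systems, fell by 1.23, 0.32 and 0.42. Haem oxygenase 1 (Hmox1) had 1472, 1293 and 1399 TPM untreated and 895, 671 and 887 TPM after LPS, a log2 fold change of -0.14 (adjusted p = 0.191, edgeR) with TMM and of -0.76, past the threshold, with library totals.

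Enzymes of arginine, nitric oxide, itaconate and prostanoid metabolism moved in both directions. Of 18 tested, 11 were higher and 5 lower, with a median of 0.98 (0.35 with library totals). Acod1, which makes itaconate, went from 132, 155 and 116 TPM to 5356, 5440 and 5111 TPM (5.93, SE 0.11, adjusted p = 6.15e-14, edgeR). The inducible cyclooxygenase Ptgs2 went from 7.44, 4.27 and 5.25 TPM to 1132, 1133 and 1203 TPM (8.29), and its constitutive counterpart Ptgs1 from 97.0 to 100 TPM to 26.3 to 31.4 TPM (-0.99). Hpgds, which makes prostaglandin D, fell by 0.51. Alox5, the enzyme for leukotrienes, had 3.31, 4.94 and 4.35 TPM untreated and 2.62, 2.11 and 1.62 TPM after LPS. Its log2 fold change of -0.36 with TMM (adjusted p = 0.0499, edgeR) lost the threshold when any of the 6 libraries was left out (adjusted p = 0.0699 to 0.122). With library totals Alox5 was at -0.98, past the threshold. Arg2 rose by 2.58 from 0.19 to 0.61 TPM. Arg1, which competes with Nos2 for arginine, overlapped between the groups, at 6.72, 5.47 and 8.34 TPM and 5.62, 5.90 and 8.15 TPM. Its log2 fold change was 0.56 with TMM (adjusted p = 0.0184, edgeR) and -0.07 with library totals, and the call was lost without LPS replicate 3 (0.36, adjusted p = 0.113) or untreated replicate 2 (0.43, adjusted p = 0.0668).

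The lists of the TCA cycle, respiratory complex I and reference genes moved little, and most of their calls depended on the scaling. Glycolysis genes moved more. In glycolysis and the hypoxia response 16 of 23 were higher and 4 lower with TMM, 6 and 2 of them at least 2-fold. In both scalings 7 were higher and 4 lower. Slc2a6, a hexose transporter, went from 25.32, 32.75 and 28.87 TPM to 266, 291 and 256 TPM (3.91), Pfkfb3, the activator of phosphofructokinase, rose by 3.11 and hexokinase 2 (Hk2) by 1.43. Vegfa (-1.01), the prolyl hydroxylase Egln3 (-1.63) and the pyruvate dehydrogenase kinase Pdk1 (-0.23) fell. Of 21 enzymes of the TCA cycle, 12 were higher and 2 lower with TMM, none by 2-fold, and 11 of the 12 had a lower sign with library totals. Idh3a (-0.20) and Idh2 (-0.18), both isocitrate dehydrogenases, were the 2 that fell. With library totals Idh3a and Idh2 were at -0.83 and -0.81, both past the threshold. The TMM call of Idh2 was lost in DESeq2 (adjusted p = 0.0602) and without untreated replicate 2 (-0.15, adjusted p = 0.0543, edgeR). The 36 subunits of respiratory complex I showed the same dependence, with 26 higher and 0 lower with TMM, all 26 with a lower sign with library totals, and a median of 0.23 or -0.40. Among 13 reference genes 9 were higher and 1 lower with TMM, with 6 of the 9 turning lower with library totals. Ppia, often used to normalise PCR, had 4341, 4580 and 4341 TPM untreated and 3431, 3336 and 3339 TPM after LPS, which was 0.22 with TMM and -0.41 with library totals. The tubulin Tubb5 fell in both scalings (-0.65).

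In cholesterol synthesis 8 of 23 genes were higher and 7 lower with TMM, and 3 and 7 in both scalings, with a median of -0.02 and of -0.65 with library totals. Hmgcs1, the synthase of the early pathway, rose by 0.86, whereas Dhcr7, Sqle and the sterol carrier Stard4 fell by 1.65, 1.01 and 1.35. Among 14 targets of the liver X receptor 7 were higher and 5 lower, and 4 and 5 in both scalings, with a median of 0.30 and of -0.33 with library totals. Ch25h, which makes an antiviral oxysterol, had 0.43, 0.83 and 0.68 TPM untreated and 35.5, 48.0 and 46.7 TPM after LPS (6.68, SE 0.21, adjusted p = 9.23e-12, edgeR). The cholesterol exporters Abca1 and Abcg1 rose by 1.19 and 1.11. The desaturase Scd2 went from 36.50, 33.12 and 35.39 TPM to 2.61, 2.17 and 2.0 TPM (-3.31), and Arl4c and Mylip fell by 2.86 and 0.71.

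Cell cycle genes fell as a group. Of 34 tested, 31 were lower in both scalings, 17 of them at least 2-fold, 2 were higher and 1 was not called, with a median of -1.02 and of -1.64 with library totals. Cdc6, which licenses replication origins, went from 25.46, 26.06 and 30.86 TPM to 1.80, 1.54 and 1.65 TPM (-3.55, SE 0.12, adjusted p = 1.21e-11, edgeR). Ccne2, a cyclin of the start of S phase, went from 77.36, 64.78 and 65.93 TPM to 4.06, 3.72 and 3.60 TPM (-3.52), and E2f8 fell by 2.26. The 2 members that rose, in both scalings, were Ccnd2 (2.98), a cyclin of the G1 phase, and Cdkn1a, which encodes the inhibitor p21 and went from 446, 480 and 470 TPM to 1387, 1499 and 1507 TPM (2.28). In promoters of the list the cell cycle homology element TTTGAA was found in 10 of 30 (33.3%), against 17.9% of all promoters in the set. It was in 12.4% of promoters of tested genes and in 18.4% of those of genes that rose at least 8-fold. For genes that fell at least 2-fold and at least 4-fold the shares were 13.7% and 14.1%. These shares were not tested. In the 250 bases before the start, Cdk1 and Top2a held a pair of matches each, and Ccnb1 and Plk1, which were also searched, held none. The Cdk1 promoter is printed as an example with matches, where Cdk1, the mitotic kinase, was chosen after its values were seen and had 213 to 231 TPM untreated and 79.6 to 109 TPM after LPS.
Cdk1 at chr10:69352913-69352998, minus strand: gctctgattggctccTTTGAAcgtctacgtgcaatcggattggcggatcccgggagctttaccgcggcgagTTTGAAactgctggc

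Antigen presentation and costimulation genes rose without exception among the 21 tested, 19 of them at least 2-fold and 19 in both scalings, with a median of 2.63 (2.0 with library totals, where 1 turned lower). Cd40, the receptor for T cell help, went from 16.69, 18.31 and 14.66 TPM to 820, 881 and 903 TPM (6.40, SE 0.09, adjusted p = 1.67e-14, edgeR). Cd274, the checkpoint ligand PD-L1, rose by 5.97 and Nlrc5, the transactivator of MHC class I genes, by 4.14.

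Among 20 metalloproteinases, inhibitors and matrix regulators, 14 were higher and 4 lower (12 and 4 in both scalings; median 1.24, or 0.62 with library totals). The collagenase Mmp13 went from 35.18, 28.95 and 30.98 TPM to 1469, 1806 and 1486 TPM (6.27), the aggrecanase Adamts4 from 0.13 to 0.16 TPM to 16.5 to 18.2 TPM (7.54) and Mmp25 from 0.06 to 0.15 TPM to 4.89 to 5.59 TPM (6.38). The gelatinase Mmp9 varied more, with 116, 180 and 213 TPM untreated and 252, 292 and 394 TPM after LPS (1.42, SE 0.20). Urokinase (Plau) fell from 491, 467 and 478 TPM to 44.9, 45.3 and 52.1 TPM (-2.71), Mmp19 by 1.34 and Adam8 by 0.87. In the unfolded protein response 6 of 20 were higher and 6 lower, with 4 of the 6 higher ones turning lower with library totals. The phosphatase regulator Ppp1r15a (2.37) and the chaperone Hspa5 (1.06) rose, and the sensor Ern1 (-0.64) and its target Dnajb9 (-0.81) fell.

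Induced genes were also grouped by their position. Of the genes that rose at least 4-fold, 951 had a position in the annotation. Of these, 247 stood in 59 runs of at least 3 such genes with gaps of at most 100 kb. The share standing in such runs was not computed for all tested genes, so these counts do not show clustering. The run with the most genes, at chr1:173350879-174031810, held Aim2 and members of the interferon-inducible Ifi200 family, and 13 of 13 tested genes rose at least 4-fold. At chr11:48861968-49135387, which holds Irgm1 and Tgtp1, 11 of 11 did so, and in the Trim30 and Trim12 region at chr7:104244457-104507849 9 of 10. The Ifit genes with Ch25h at chr19:34473778-34650009 counted 8 of 9. Other runs also held tested genes that did not rise 4-fold. At chr17:33908044-34066685 5 of 18 tested genes rose at least 4-fold and 5 were lower. At chr11:82802449-83215154, with Slfn genes, 8 of 13 rose at least 4-fold and 2 were lower. All runs named here were chosen after their values were seen. Those of the Ifi200, Irgm1 and Tgtp1, Trim and Ifit genes hold families of close paralogues whose members share reads. The strand setting of the counting is not given in the sources used here. Values of single members and of overlapping or antisense genes are therefore uncertain.

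The comparison with the other genotypes asked whether the response to LPS depends on GILZ. In fits of 6 libraries each, 1687 genes rose at least 2-fold in both GILZ KO and WT, which was 93.7% of the GILZ KO and 90.2% of the WT genes, and 1576 fell in both, which was 83.6% and 90.3%. No gene was called at least 2-fold in opposite directions. Over 12174 genes tested in both genotypes Pearson's r of the log2 fold changes was 0.975 with a slope of 0.958, as a description across genes that are not independent, from libraries of the same design without shared samples. Of these genes 91.9% were within 0.5 of each other on the log2 scale. With GILZ TG the shares were 90.7% and 91.5% for rises and 80.9% and 87.6% for falls, r was 0.968 and 90.0% of 12179 genes lay within 0.5.

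**Figure D4:**
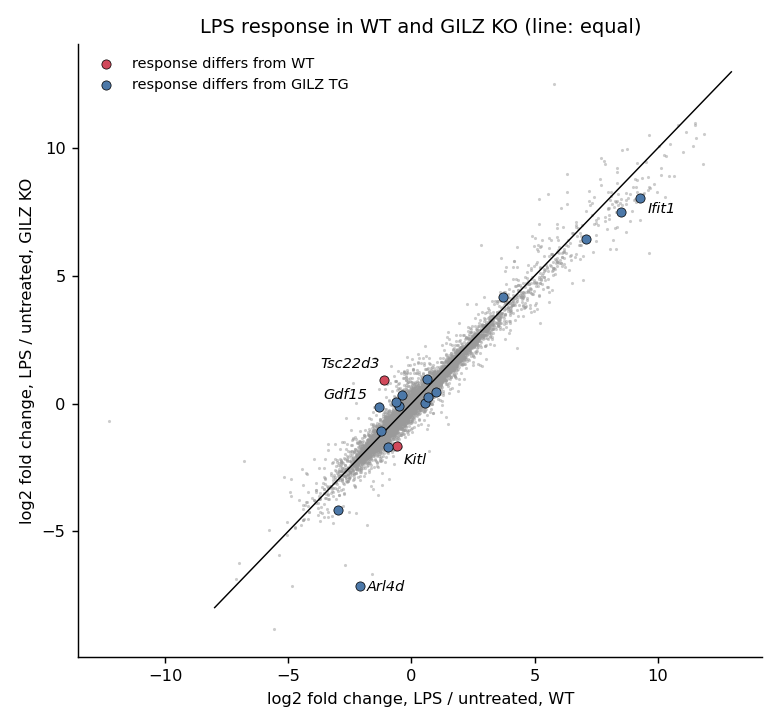
Log2 fold change of LPS over untreated in GILZ KO (y axis) against that in WT (x axis) for 12174 genes tested in both, with the line of equal change and the genes whose response differed by the test marked. The points follow the line, with r of 0.975.

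The difference of the responses itself was tested in a fit of all 18 libraries over 13169 genes. Between GILZ KO and WT it passed for 2 genes (0.0152%) in edgeR, with 838 at an unadjusted p under 0.05 and 20 calls in DESeq2. One was Tsc22d3, whose log2 fold change was 0.91 in GILZ KO and -1.10 in WT, a difference of 2.02 (SE 0.22, adjusted p = 0.000782) that was called in 12 of 12 fits with 1 library left out. Tsc22d3 is the deleted gene and was low in GILZ KO with and without LPS. This difference therefore follows from the design and says nothing about other genes. The other was Kitl, which encodes stem cell factor, with 72.67, 67.50 and 69.75 TPM untreated and 12.84, 17.16 and 12.15 TPM after LPS in GILZ KO, and 36.03, 28.81 and 26.41 TPM and 13.20, 12.25 and 12.64 TPM in WT. Its difference of -1.06 (SE 0.16, adjusted p = 0.0372) was called in 1 of 12 such fits, which made 4 calls without LPS replicate 2 of GILZ KO and 1 call without any other library of both genotypes. Untreated GILZ TG cells had Kitl at 51.32 to 73.14 TPM, near GILZ KO and above WT. The Lyz2 locus lies on the same chromosome at a distance of 17.2 Mb. There GILZ TG was also near GILZ KO, but both were far below WT. Whether the locus has a part in the difference was not tested.

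Against GILZ TG the difference passed for 16 genes (0.121%), with 1306 at an unadjusted p under 0.05 and 150 calls in DESeq2. In GILZ TG the untreated and LPS libraries with the same number deviated together, with correlations of 0.266, 0.397 and 0.605. This was not so in GILZ KO (-0.033, 0.086 and 0.095). In GILZ TG, however, untreated replicate 1 with LPS replicate 2 had 0.347 and untreated replicate 2 with LPS replicate 1 had 0.258. Whether the numbers pair these 2 replicates is therefore not shown. The 16 genes come from the fit without pairing. With the replicate block the count was 144, and of the 16 genes Arl4d was not called (adjusted p = 0.0506, edgeR). The responses of 7 genes were more positive in GILZ KO. Gdf15, a stress-induced cytokine, had 12.21, 11.09 and 14.58 TPM untreated and 7.14, 7.11 and 8.14 TPM after LPS in GILZ KO, a log2 fold change of -0.14 against -1.70 in GILZ TG (difference 1.56, SE 0.23, adjusted p = 0.0229, edgeR). Fosl2, the AP-1 subunit Fra-2, had 20.39, 20.80 and 21.37 TPM and 13.43, 13.37 and 15.13 TPM in GILZ KO, a change of 0.05 against -1.04 (difference 1.08, adjusted p = 0.0496). Plk3, Bcl2a1b, Hilpda, Jmjd6 and Mapk7 differed by 1.05, 0.79, 0.75, 0.71 and 0.58.

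In 9 genes the response was more negative in GILZ KO, and among these were the interferon-induced Mx2, Ifit1 and Ifi209, with differences of -1.69, -1.47 and -1.12. Ifit1 had 2005 to 2321 TPM after LPS in GILZ KO and 2573 to 2597 TPM in GILZ TG, and without LPS 9.42 to 16.88 and 4.31 to 6.50 TPM. Mx2 had 230 to 267 and 312 to 325 TPM after LPS, and 1.30 to 3.01 and 0.61 to 1.02 TPM without. All 3 were higher in every untreated GILZ KO than in every untreated GILZ TG library, and highest in untreated replicate 1, the library that stood apart. Bach1, a repressor of Hmox1, had a difference of -0.68, and Rere, Syne3, Endod1 and Mex3b had differences of -0.86, -1.04, -0.46 and -2.10. Arl4d had 71 counts over the untreated and 0 over the LPS libraries of GILZ KO, at least 11.9-fold lower. The count of 16 depended on single libraries. It was 3 without untreated replicate 1 of GILZ KO, and 1, 49 and 0 without LPS replicates 1, 2 and 3 of GILZ KO. Leaving out untreated replicates 1, 2 and 3 of GILZ TG gave 3, 6 and 61 genes, and leaving out LPS replicates 2 and 3 of GILZ TG gave 0 and 82. Each of the 16 genes was called in 2 to 9 of 12 such fits.

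**Figure D5:**
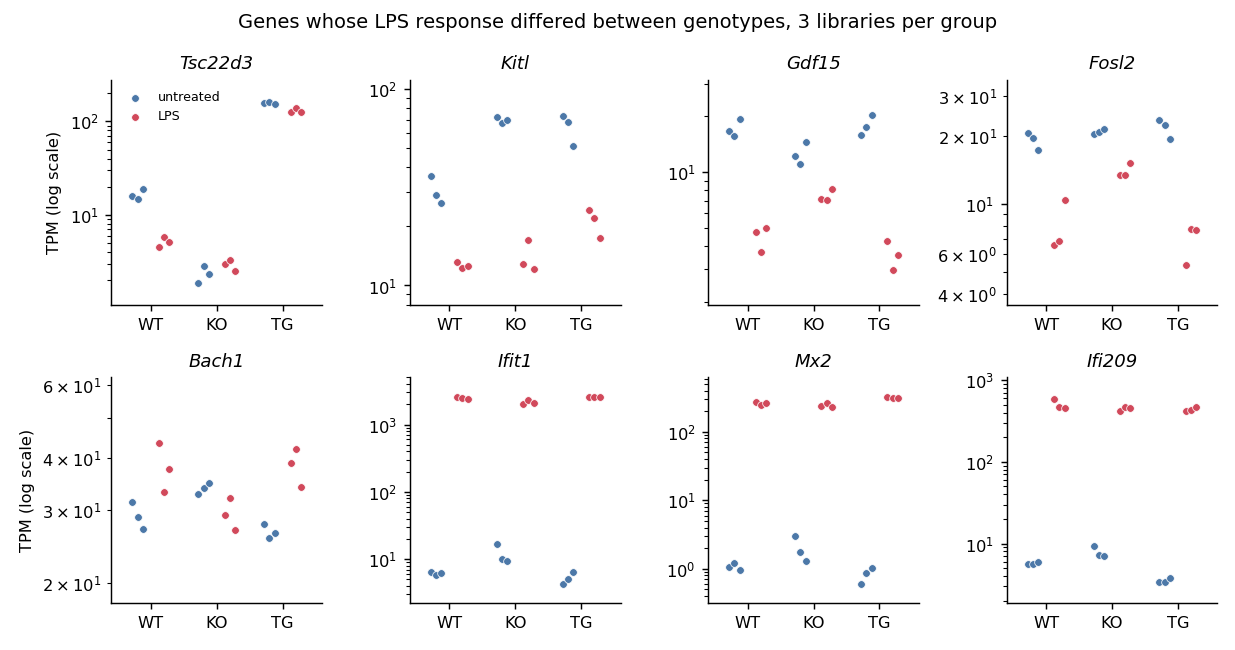
Level in TPM (y axis, log scale) of 8 genes in untreated and LPS-treated libraries of WT, GILZ KO and GILZ TG (x axis), 3 points per group. Tsc22d3 falls in WT after LPS and stays low in GILZ KO, Kitl starts higher in GILZ KO and GILZ TG than in WT, and Ifit1, Mx2 and Ifi209 start higher in GILZ KO than in GILZ TG.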

How the data were processed

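Libraries of untreated and LPS-treated BMMs, 3 per genotype and treatment, were sequenced by the authors with a directional kit. The authors mapped reads to mouse GRCm38 with the grape-nf pipeline, and the submitters' processing notes also name FastQC 0.11.2 and DESeq2 1.40.2. The counting tool, annotation release and strand setting are not given in the sources used here. The authors deposited an expected count per gene and library, an estimated read count that need not be whole and is not normalized, and a TPM, scaled by effective length and library total. The authors' DESeq2 tables hold their own comparisons and were not used.

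Of 38887 identifiers, 37570 matched a symbol in the GENCODE annotation of GRCm38. Blank lines in 14 files were left out. Gbp5 was not among the identifiers used here. Expected counts were rounded and filtered with filterByExpr at a minimum count of 10. TMM factors scaled the 6 GILZ KO libraries, and the main test was edgeR's quasi-likelihood F test (version 4.0.16, R 4.3.3) without pairing. P-values were adjusted by Benjamini-Hochberg over all genes tested, with a threshold of 0.05. Differences of the response were tested as interactions in all 18 libraries. In GILZ KO an exact permutation test of 3 against 3 libraries could not go below p = 0.1 and was not used. SD is over 3 libraries per group. The SE was derived from the log2 fold change and the F statistic of the fit, which shares information on the spread among genes. For differences of the response that fit holds all 18 libraries. The ratio interval covers counting error only.

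The alternatives were DESeq2 1.42.0, its size factors, library totals, limma 3.58.1 on log2(TPM + 1) and log2(TPM + 0.1), no filter, a minimum count of 50, all 18 or 12 libraries in a fit, a threshold of 0.01, a replicate block and leaving out each library. Calls shared by both scalings, and lists and counts without untreated replicate 1, were added after seeing the data. The procedure was tested on simulated data. In these only a small set of genes changed, in both directions, whereas in GILZ KO most genes did. The simulation therefore could not test the choice of scaling. Python 3.11.15 with matplotlib 3.10.9 made the figures.

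The named genes were Tsc22d3 and Lyz2, the 12 largest rises and falls past the threshold without overlap and with at least 10 TPM in the higher group, the 3 largest rises and falls of each list, 26 textbook genes, the 10 most abundant per group and genes whose response differed. The libraries, lists and rules were chosen with earlier results of these data known. Results for a few genes are not reported here.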

Additional observations from a re-analysis of the deposited data

Results flagged for a closer look

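The LPS response of GILZ KO differed from that of WT for Tsc22d3, by 2.02 on the log2 scale, and for Kitl, by -1.06, in the test of the difference (edgeR). For Tsc22d3, the deleted gene, this follows from the design. The response of GILZ KO differed from that of GILZ TG for 16 genes. The differences, GILZ KO minus GILZ TG on the log2 scale, were positive for Gdf15 (1.56), Fosl2 (1.08), Plk3 (1.05), Bcl2a1b (0.79), Hilpda (0.75), Jmjd6 (0.71) and Mapk7 (0.58). They were negative for Arl4d (-6.22), Mex3b (-2.10), Mx2 (-1.69), Ifit1 (-1.47), Ifi209 (-1.12), Syne3 (-1.04), Rere (-0.86), Bach1 (-0.68) and Endod1 (-0.46). The Arl4d value rests on 0 counts in the LPS libraries of GILZ KO, depends on the prior count of the fit and is no bound.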

How the results depend on the processing

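The counts of changed genes in GILZ KO depended on the scaling. With library totals 2050 genes were higher and 8830 lower, and 1195 and 4168 changed at least 2-fold. With limma on log2(TPM + 0.1) these were 2002, 8619, 1172 and 4019, and with limma on log2(TPM + 1) they were 2005, 8645, 1001 and 3118. Higher genes were 18.8% of the calls with limma on log2(TPM + 1), 50.6% with DESeq2's size factors and 51.5% with DESeq2. Called in the same direction by both scalings were 2050 higher genes, 1195 of them at least 2-fold. The other alternatives stayed within 1.5 times. Without single replicates there were 4295 to 4395 higher and 4561 to 4680 lower genes, with 1818 to 1884 and 1906 to 2027 at least 2-fold.

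The same-numbered libraries of GILZ KO had correlations of -0.033, 0.086 and 0.095 in their deviations, so these share only a number as far as the data show. Those of WT had 0.264, -0.013 and 0.055, with only number 1 clearly above 0. Those of GILZ TG had 0.266, 0.397 and 0.605. Untreated replicate 1 of GILZ TG correlated better with LPS replicate 2 (0.347), and untreated replicate 2 with LPS replicate 1 had 0.258. The values set replicate 3 of GILZ TG apart and do not show whether the numbers pair replicates 1 and 2. The replicate block gave 4516 higher and 4830 lower genes, with 1828 and 1908 at least 2-fold, and moved the calls of Mertk (adjusted p = 0.022, edgeR) and Alox5 (0.0769) among the named genes. For the difference of the response to WT it gave 8 genes and to GILZ TG 144. DESeq2 gave 20 and 150, DESeq2's size factors 1 for WT and no filter 63 for GILZ TG. Without single replicates the differences were 1 to 4 genes for WT and 0 to 82 for GILZ TG.

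Of 187 named genes 22 turned lower with library totals and with limma on TPM, and 0 with DESeq2 or with its size factors. With library totals they were Dlst -0.25, Pdhb -0.34, Ndufa1 -0.18, Ndufs4 -0.19, Ndufa2 -0.24, Herpud1 -0.07, Tlr4 -0.32, Arg1 -0.07, Mertk -0.23, Ppia -0.41, Tpt1 -0.40, Tmsb4x -0.17, Eef1a1 -0.20, Ctsd -0.55, Spp1 -0.41, S100a4 -0.54, Heatr5a -0.43, Bach1 -0.18, Plk3 -0.29, Fosl2 -0.58, Endod1 -0.36 and Rere -0.59. With limma on log2(TPM + 0.1) and log2(TPM + 1) the values differed for Ndufs4 (-0.19, -0.18), Herpud1 (-0.08, -0.08), Tlr4 (-0.25, -0.25), Arg1 (-0.06, -0.05), Mertk (-0.16, -0.12), Ppia (-0.39, -0.39), Tpt1 (-0.38, -0.38), Eef1a1 (-0.21, -0.21), Heatr5a (-0.43, -0.42), Bach1 (-0.21, -0.20), Plk3 (-0.30, -0.27), Fosl2 (-0.58, -0.55), Endod1 (-0.36, -0.35) and Rere (-0.64, -0.61). Leaving out single replicates, Fosl2 ranged from -0.02 (without LPS replicate 3) to 0.11, and Rere from -0.02 (without LPS replicate 2; -0.01 without untreated replicate 1) to 0.07. Without the filter Rere was -0.01. The depth of 14583055 counts in the smallest LPS library limits genes with few counts.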
